A study of Mus musculus with 6 samples.

Results

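Cytochromes P450 are haem enzymes that insert an oxygen atom into drugs, steroids, fatty acids, bile acids and retinoids. Most of those in liver sit in the endoplasmic reticulum and receive electrons from NADPH through cytochrome P450 oxidoreductase, encoded by Por. Hepatocytes carry the largest stock of them in the body. Their genes are controlled by nuclear receptors and liver-enriched transcription factors, and their mRNA is known to fall when hepatocytes are put in culture. Many mouse P450 genes lie in tandem clusters of recent copies, which matters for read counting.

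The genes described were Por and every symbol made of Cyp, digits, a letter and digits, with or without a final letter as in Cyp4a12a. The bile acid synthesis genes Cyp7a1, Cyp7b1, Cyp8b1, Cyp27a1 and Cyp39a1 were left out, as were 5 symbols ending in -ps. This gave 91 of the 22609 genes in the files, 90 P450 genes and Por. Of these, 50 had 10 or more counts in at least 3 libraries and are described by subfamily. A further 15 had no count in any library and 26 had a few, at most 11 in a library. Just inside the count rule was Cyp2c55, with 10, 6 and 17 counts in the PBS libraries and 3, 0 and 10 in the LRG1 libraries. Just outside were Cyp4a31, with 4, 11 and 5 counts and then 9, 5 and 5, and Cyp46a1, with 8, 6 and 5 and then 5, 8 and 5. Cyp1a1 and Cyp2b10 met the rule only because of their PBS counts. No LRG1 library of Cyp1a1 and 1 of Cyp2b10 had 10 counts or more. Cyp4a32 needed its LRG1 counts, as PBS replicate 1 had 7.

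The study exposed primary hepatocytes of 4-month-old male wild-type C57BL/6 mice to LRG1, a secreted glycoprotein, at 20 µg/mL for 16 h (3 libraries), or to PBS for the same time (3 libraries). No group given another protein was analysed here. Whether the 3 libraries of a group are separate animals or separate dishes is not in the labels. The p-values therefore cover only how these libraries varied, which may be technical. The comparison asks which P450 mRNAs differ between hepatocytes given the protein and those given the buffer.

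Library totals were 18625748 to 23036332 counts in genes, and replicates correlated at a Pearson r of 0.995 to 0.996 across genes. Of 12301 tested genes, 51.4% passed the threshold, an adjusted p under 0.05 in edgeR's quasi-likelihood test with Benjamini-Hochberg adjustment. Levels are CPM, which sets every library to the same total, given as mean ± SD with n = 3 per group. Hepatocyte markers were abundant, with 7 of 8 listed present and a summed level of 23822 to 24971 CPM with PBS and 22710 to 23756 CPM with LRG1. Most of that was Alb, at 19235 ± 676 and 18555 ± 375 CPM. Apoa1, Fga and Hnf4a were lower with LRG1, and Alb, Ttr, Apob and Serpina1c did not pass the threshold. The 8 stellate and fibroblast markers summed to 34.7 to 44.99 CPM with PBS and to 130 to 139 CPM with LRG1. Of this, 11.2 ± 2.30 CPM with PBS and 110 ± 4.96 CPM with LRG1 was Col1a1, the only marker of the list that was higher. Reln was lower, Col1a2, Col3a1, Pdgfrb, Des and Dcn did not pass the threshold, and Lrat was too low to be tested. The 6 macrophage markers found summed to 220.2 to 265 and 179.8 to 205 CPM, nearly all of it Cd68. Cd68 and Cd5l were lower, Marco was higher, and Emr1, Clec4f and Csf1r did not pass the threshold. The markers of this list thus had no common direction. For the 6 endothelial markers the sums were 39.8 to 42.3 and 33.6 to 37.8 CPM, with Stab2 and Lyve1 lower and the others not past the threshold. Biliary markers (5 genes) gave 4446 to 4630 and 4325 to 4643 CPM, nearly all of it Spp1. Krt19 went from 18.4 ± 3.07 to 3.24 ± 0.248 CPM and Sox9 from 52.6 ± 0.498 to 84.3 ± 2.004 CPM (edgeR adjusted p of 1.24e-13 and 1.47e-11), and Epcam and Krt7 were too low to be tested. Among the blood markers Hba-a1, Hbb-b1 and Cd3e were at 0 in every library. The part of these shifts in the results below was not tested. In bulk RNA, fewer cells of a type and less RNA per cell cannot be told apart.

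The summed P450 mRNA was lower with LRG1, and the genes that were lower were mainly the xenobiotic enzymes, those that act on drugs and other foreign compounds. Cyp2c70, which makes the muricholic acids of mouse bile, was 7.99-fold lower, Cyp2c68 3.17-fold and Cyp3a13 3.05-fold lower. The main exception was Cyp21a1, named for the steroid 21-hydroxylase of the adrenal cortex, which was 5.13-fold higher. Highly expressed members differed in size and direction. Cyp2e1, Cyp4v3 and Por were 1.14, 1.19 and 1.19-fold lower, Cyp3a11 was 1.39-fold lower and Cyp2j6 1.09-fold higher. Cyp3a13 was highly expressed too.

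In numbers, 49 of the 50 members that met the count rule could be tested, all but Cyp2c55. Of them 26 (53.1%) were lower with LRG1, where 25.8% of all tested genes were, and 9 (18.4%) were higher, where 25.5% of all tested genes were. The remaining 14 did not pass. Cyp1a1 and Cyp2b10, which could be tested only because of their PBS counts, are among the 26. Cyp4a32, which could be tested only because of its LRG1 counts, is among the 9. Without Cyp1a1 25 of 48 (52.1%) were lower, with Cyp2b10 still counted. The median log2 fold change was -0.25, beside 0.0093 over all tested genes, and the median absolute change 0.33, beside 0.20. Differences of at least 2-fold were found for 6 lower members (12.2%, against 5.43% of all tested genes), Cyp1a1 and the scarce Cyp2b10 among them. On the higher side there were 2 (4.08%, against 4.07%), Cyp21a1 and Cyp4a32. The values of the groups did not overlap for 34 members (69.4%), against 57.6% of all tested genes. With the stricter rule of 10 counts in all 6 libraries, which leaves out Cyp1a1, Cyp2b10 and Cyp4a32, 24 were lower and 8 higher. Tested against a change of 1.5-fold and leaving Cyp1a1 aside, 6 members were lower, Cyp2b10, Cyp2c68, Cyp2c70, Cyp2d9, Cyp2j5 and Cyp3a13, and Cyp21a1 was higher. Cyp2b10 is in that list only because its PBS counts brought it into the test.

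**Figure D1:**
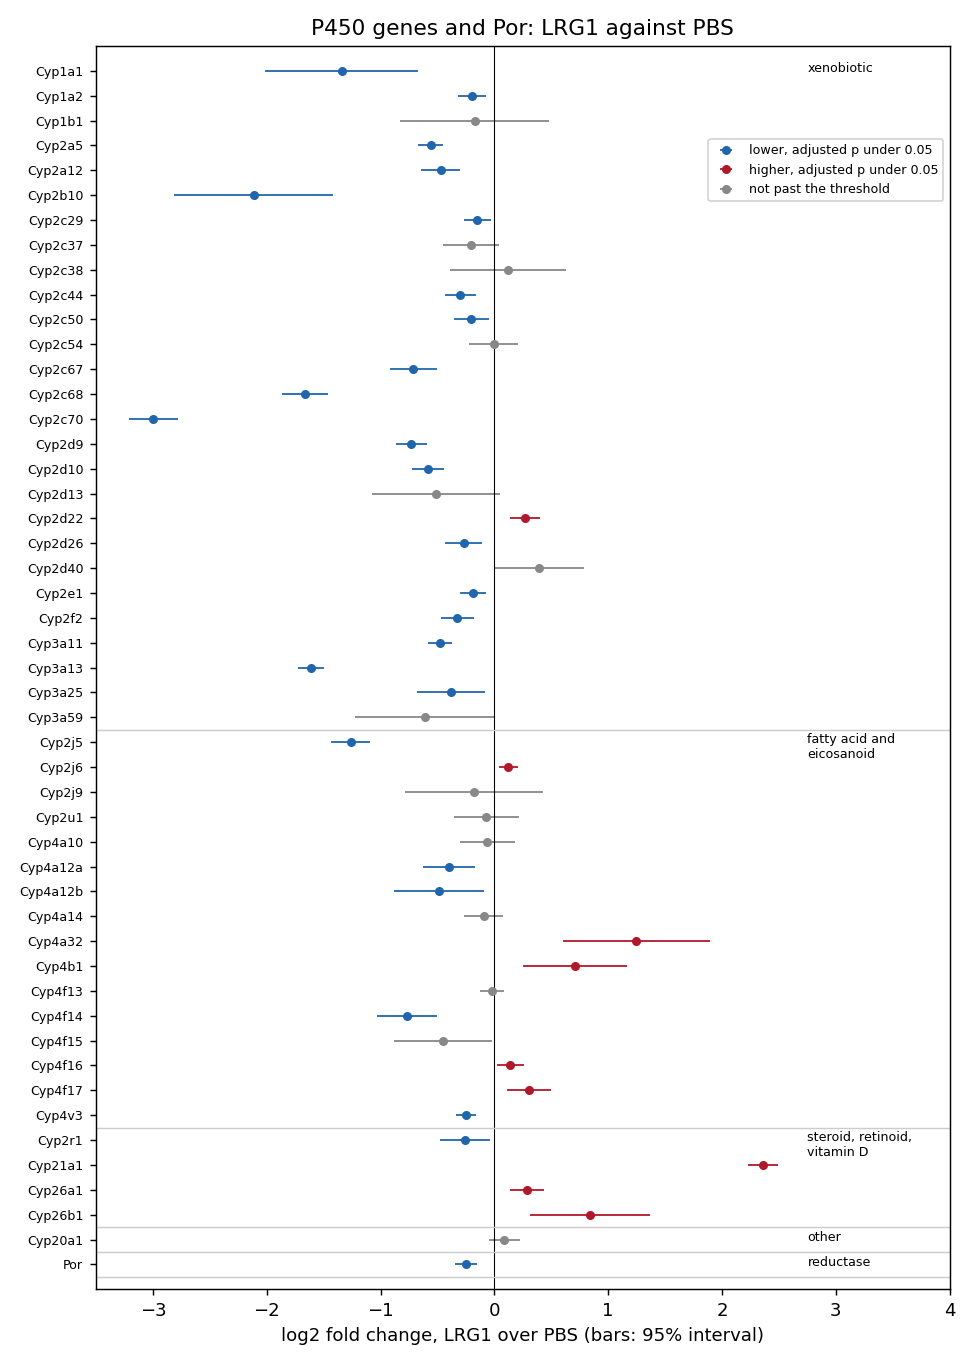
Log2 fold change (x axis, LRG1 over PBS, bars 95% interval) of the 49 tested genes (y axis), ordered by role and subfamily. Of the 27 xenobiotic genes at the top 19 were lower (70.4%, against 25.8% of all tested genes) and 1 higher (3.70%, against 25.5%). The 4 genes of steroids, retinoids and vitamin D, just above Cyp20a1 and Por, held 3 of the 9 higher ones.

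Summed over the 91 genes, the level was 1966, 2036 and 2058 CPM in PBS replicates 1 to 3 and 1732, 1613 and 1621 CPM in LRG1 replicates 1 to 3. Every LRG1 library was below every PBS library. The family took 0.201% ± 0.00375 of gene counts with PBS and 0.166% ± 0.00609 with LRG1. The sum of the xenobiotic enzymes went from 1166 ± 46.3 to 790 ± 36.7 CPM, while the fatty acid enzymes summed to 528 ± 7.41 and 492 ± 14.02 CPM. The steroid, retinoid and vitamin D genes went the other way, from 54.5 ± 1.501 to 138 ± 8.58 CPM, mostly through Cyp21a1. These sums are descriptions, with no test.

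**Figure D2:**
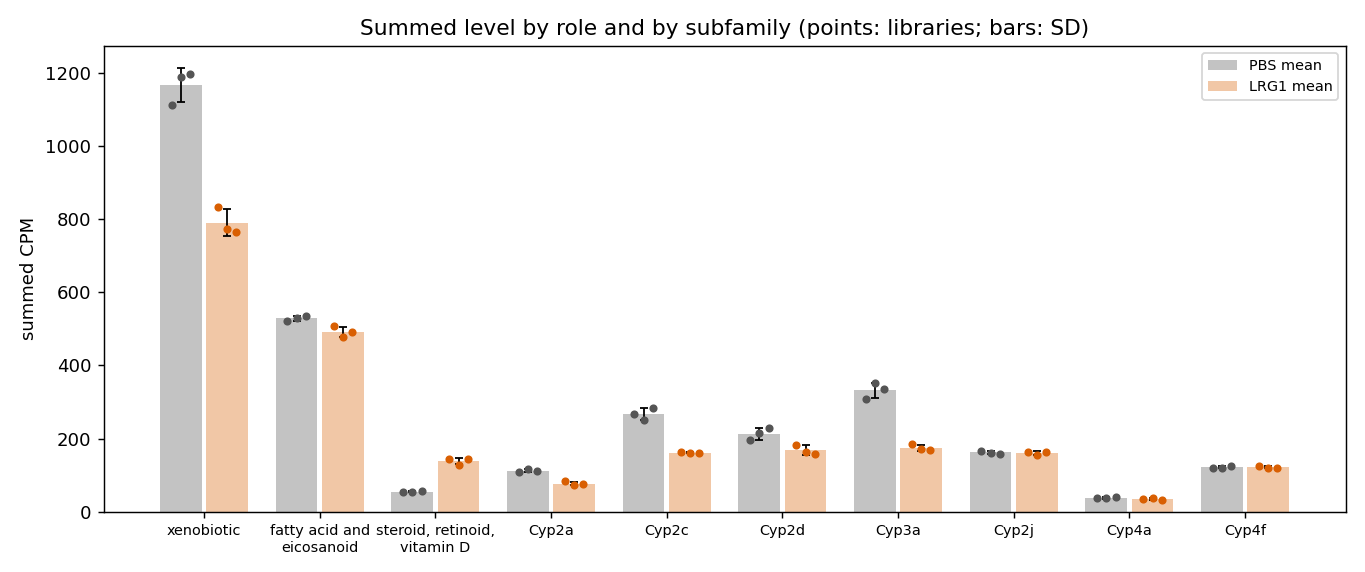
Summed CPM (y axis, from 0) of the members of each role and of the larger subfamilies (x axis), with bars for the mean, points for the 3 libraries of a group and error bars for the SD. The Cyp3a sum went from 332 ± 21.1 to 175.4 ± 8.28 CPM and the Cyp2c sum from 267 ± 16.5 to 162 ± 1.53 CPM, while the Cyp2j and Cyp4f sums differed by less than the SD.

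Levels of different genes were compared per exon length, as CPM per kilobase (RPKM), with lengths from GENCODE M21. By this measure Cyp2e1 was the highest of the P450 genes in both groups, at means of 71.2 and 62.6 RPKM. Cyp3a13, at 55.1 RPKM, Cyp4v3, at 52.0, and Cyp2d10, at 45.9, came next in the PBS libraries. With LRG1 the order was Cyp2e1, Cyp21a1 (46.2 RPKM), Cyp4v3 (43.8) and Cyp2j6 (41.4), and Cyp3a13 stood at 18.1. Por itself was at 59.1 and 49.7 RPKM. The order is loose, since the counts of genes with close copies are incomplete. The lengths also take in every annotated exon of a gene, which gave 5093 nt for Cyp3a11 and 2083 nt for Cyp3a25. Cyp3a11, at 31.9 and 22.9 RPKM, would rank higher with a shorter length.

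The similarity behind that incompleteness was measured on the transcripts, and the reads lost were not counted. Reads were 50 nt long, so each member's transcripts were divided into all 50-nt windows, and each window was compared with the transcripts of the other P450 genes. In 21 of the 49 members with a transcript model, 25% or more of the windows lay within 2 mismatches of another P450 gene. No such window was found for Por, Cyp2c70, Cyp2c44, Cyp2f2, Cyp4v3, Cyp2r1, Cyp26a1, Cyp26b1 and Cyp1b1, and for Cyp3a13 the share was 0.138%. Windows within 2 mismatches of another P450 gene made up 96.2% of Cyp2c68 and 96.5% of Cyp2c67. Those shared exactly with any other gene were fewer, 43.3% and 52.8%. A read with a mismatch to the copy can still align uniquely, so the near share is not a share of lost reads. The next lines give an example from GENCODE M21 transcripts. They hold a window from the coding sequence of Cyp2c68, its match in Cyp2c67 and the closest stretch of Cyp2c70. Capitals mark the bases of Cyp2c67 and Cyp2c70 that differ from Cyp2c68, and in Cyp2c68 the base that differs from Cyp2c67.
Cyp2c68: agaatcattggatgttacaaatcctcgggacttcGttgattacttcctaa
Cyp2c67: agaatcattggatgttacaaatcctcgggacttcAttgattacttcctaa
Cyp2c70: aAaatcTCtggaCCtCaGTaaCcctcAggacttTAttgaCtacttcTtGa
Cyp2c67 differs from Cyp2c68 at 1 base of this window and Cyp2c70 at 15. The value of Cyp2c68 is therefore uncertain with respect to its copies, whereas no window of Cyp2c70 lay near another P450 gene. Among the 28 members under 25%, 14 were lower and 6 higher. Among the 21 at or above it, 12 were lower and 3 higher.

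**Figure D3:**
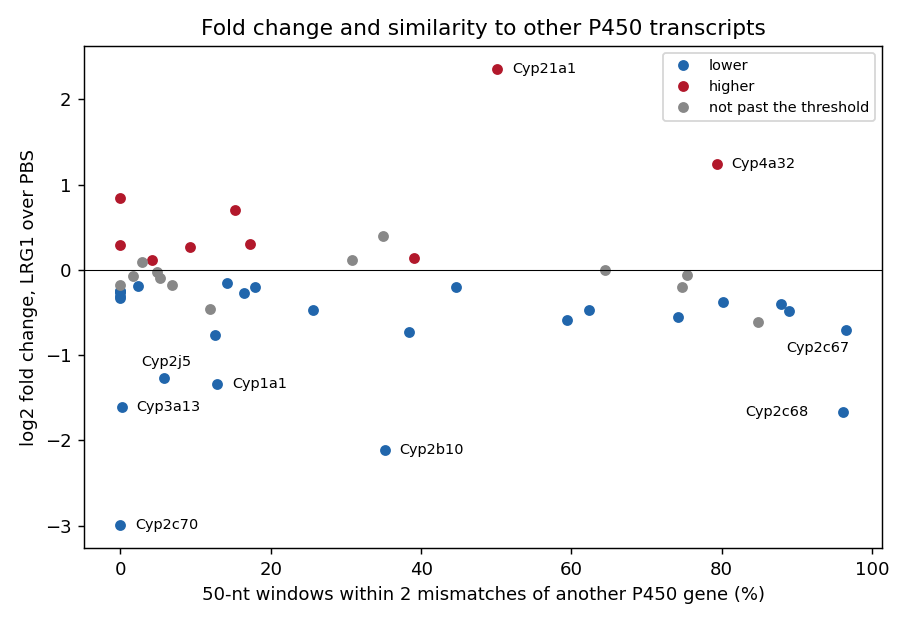
Log2 fold change (y axis) against the share of a gene's 50-nt windows within 2 mismatches of another P450 gene (x axis, %), 1 point per tested gene with a transcript model. Cyp2c70, Cyp3a13 and Cyp2j5 are far below 0 at shares of 0, 0.138 and 5.79%, whereas Cyp2c68 and Cyp21a1 stand at 96.2 and 50.1%.

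The Cyp1 genes encode enzymes for planar aromatic compounds and are induced by the aryl hydrocarbon receptor. Cyp1a2, which oxidises caffeine and aromatic amines, had 50.3, 46.03 and 52.9 CPM in the PBS libraries and 43.8, 41.4 and 45.04 CPM in the LRG1 libraries. The groups did not overlap, but they were close. Its log2 fold change was -0.20 (SE 0.059, edgeR adjusted p = 0.00721). It missed the threshold when PBS replicate 3 (-0.15, adjusted p = 0.0580) or LRG1 replicate 2 (-0.16, adjusted p = 0.0519) was left out, and after removal of GC and length trends (-0.12, adjusted p = 0.0950). Cyp1a1 was scarce, at 19, 20 and 19 counts with PBS and 7, 9 and 9 with LRG1. No LRG1 library reached the 10 counts of the rule, so its PBS counts alone brought it into the test, and its difference is given as a description. Cyp1b1 had 0.769 ± 0.128 and 0.682 ± 0.129 CPM, and the 95% interval of its log2 fold change, -0.83 to 0.48, allows a change in either direction. Ahr, the receptor gene, stood at 94.3 ± 1.55 and 98.8 ± 6.03 CPM (adjusted p = 0.246).

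Both measured Cyp2a genes were lower. Cyp2a5, the coumarin hydroxylase, had 86.2, 95.3 and 88.5 CPM with PBS and 65.4, 57.6 and 60.5 CPM with LRG1. Every LRG1 library was below every PBS library, with a log2 fold change of -0.56 (SE 0.053, adjusted p = 4.71e-09). Cyp2a12 had a log2 fold change of -0.47. Windows near another P450 gene made up 74.2% and 62.4% of these genes, so the split between them and their copies Cyp2a4 and Cyp2a22, which had 7 counts or fewer in each library, is uncertain.

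Cyp2b10, the classic phenobarbital-induced gene and target of the receptor CAR, was low in these cells. It had 42, 26 and 39 counts in the PBS libraries and 9, 15 and 3 in the LRG1 libraries, of which 1 reached 10 counts. The groups were well separated although the LRG1 libraries differed among themselves. The log2 fold change was -2.11 (SE 0.34, adjusted p = 1.27e-05). The PBS counts brought the gene into the test, so this difference is given as a description. Nr1i3, which encodes CAR, had 11 counts or fewer in each library and was not tested. Cyp2b9, Cyp2b13, Cyp2b19 and Cyp2b23 had at most 6 counts in a library.

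The Cyp2c genes, which epoxidise arachidonic acid and hydroxylate drugs and bile acids, differed most among themselves. Of 9 tested, 6 were lower (66.7%, against 25.8% of all tested genes), none was higher (against 25.5%) and 3 did not pass. Cyp2c70 had 84.3, 61.9 and 77.4 CPM in the PBS libraries and 7.82, 10.7 and 9.32 CPM in the LRG1 libraries. The lowest PBS library was still far above the highest LRG1 library. The log2 fold change was -2.997 (SE 0.10, adjusted p = 5.13e-17). Its share of all P450 and Por counts went from 3.69 to 0.561%.

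Cyp2c68 had 19.9, 19.7 and 20.3 CPM with PBS and 6.77, 5.66 and 6.55 CPM with LRG1 (log2 fold change -1.66 with SE 0.096, adjusted p = 5.58e-13). Its near copy Cyp2c67 had 14.4, 14.8 and 14.7 CPM and then 10.3, 8.33 and 8.26 CPM (log2 fold change -0.71 with SE 0.10, adjusted p = 2.28e-06). Both pairs of groups were clearly apart. Cyp2c44, an arachidonic acid epoxygenase listed as Cyp2c23 in GENCODE, had a log2 fold change of -0.30 (adjusted p = 0.000499).

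Other members of the cluster had smaller estimated differences, some of them imprecise. Cyp2c29 had 60.1, 63.9 and 69.4 CPM with PBS and 56.8, 56.4 and 61.2 CPM with LRG1, and the groups overlapped. Its log2 fold change of -0.15 (SE 0.056, adjusted p = 0.0294) lost the call without PBS replicate 3 (-0.09, adjusted p = 0.206), LRG1 replicate 1 (-0.14, adjusted p = 0.0719) or LRG1 replicate 2 (-0.13, adjusted p = 0.118). Cyp2c50 had a log2 fold change of -0.20 (adjusted p = 0.0248), which did not pass with DESeq2 (adjusted p = 0.0515), without PBS replicate 3 (adjusted p = 0.0919) or without LRG1 replicate 3 (adjusted p = 0.133). Cyp2c54 was at 9.96 ± 0.898 and 9.92 ± 0.371 CPM, with a 95% interval of -0.22 to 0.21. Cyp2c37 (interval -0.45 to 0.044) and Cyp2c38 (-0.39 to 0.63) did not pass, and Cyp2c37 passed without LRG1 replicate 1 (-0.31, adjusted p = 0.0496). Windows near another P450 gene made up 14.1% of Cyp2c29, 44.7% of Cyp2c50, 64.5% of Cyp2c54, 74.7% of Cyp2c37 and 30.8% of Cyp2c38.

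RefSeq promoters were matched for 39 of the 50 members, and the 250 bases before each start were searched on both strands. The motifs were GCGTG (aryl hydrocarbon receptor core), AGGTCA (nuclear receptor hexamer), TTATGTAA (D-box), CAGACA (SMAD element) and CAAAGTCCA (an HNF4A element). CAAAGTCCA occurred in 4 of the 39 (10.3%), against 0.381% of 27025 promoters. The 4 were Cyp2c67, Cyp2c68, Cyp2c70 and Cyp3a11. All 4 were lower with LRG1, as were 23 of the 39 matched members. Cyp2c67 and Cyp2c68 are near copies and do not count separately. Their sequences follow, with Cyp2c29, whose level differed least among the lower members, for contrast. They are from the GRCm38.p6 build, and capitals mark any of the 5 motifs.
Cyp2c70 promoter, chr19:40187287-40187536, minus strand: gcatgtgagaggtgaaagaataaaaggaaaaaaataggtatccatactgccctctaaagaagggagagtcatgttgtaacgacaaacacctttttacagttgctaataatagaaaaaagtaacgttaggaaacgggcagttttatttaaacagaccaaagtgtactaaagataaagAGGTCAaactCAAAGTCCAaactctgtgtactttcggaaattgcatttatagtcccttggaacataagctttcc
Cyp2c68 promoter, chr19:39741102-39741351, minus strand: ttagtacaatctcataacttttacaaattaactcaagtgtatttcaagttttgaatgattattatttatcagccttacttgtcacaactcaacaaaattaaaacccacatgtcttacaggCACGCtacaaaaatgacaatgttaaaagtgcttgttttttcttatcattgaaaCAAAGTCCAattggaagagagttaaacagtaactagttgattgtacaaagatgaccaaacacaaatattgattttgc
Cyp2c67 promoter, chr19:39649043-39649292, minus strand: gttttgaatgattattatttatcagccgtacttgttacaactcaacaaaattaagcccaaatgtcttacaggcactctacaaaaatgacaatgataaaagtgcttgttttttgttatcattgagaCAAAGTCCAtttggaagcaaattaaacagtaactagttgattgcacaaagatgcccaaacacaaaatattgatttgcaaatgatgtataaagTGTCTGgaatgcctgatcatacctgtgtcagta
Cyp3a11 promoter, chr5:145879855-145880104, minus strand: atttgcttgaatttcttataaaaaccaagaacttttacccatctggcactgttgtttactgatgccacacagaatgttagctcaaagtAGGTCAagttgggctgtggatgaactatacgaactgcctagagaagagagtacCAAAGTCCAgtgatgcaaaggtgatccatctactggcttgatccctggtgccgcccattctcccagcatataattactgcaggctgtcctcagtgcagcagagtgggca
Cyp2c29 promoter, chr19:39286835-39287084, plus strand: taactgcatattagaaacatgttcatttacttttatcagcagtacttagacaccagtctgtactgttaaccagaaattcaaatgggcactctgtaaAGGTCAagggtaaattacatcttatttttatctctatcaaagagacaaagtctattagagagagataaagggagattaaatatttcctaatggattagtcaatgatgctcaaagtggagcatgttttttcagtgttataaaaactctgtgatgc
The CAAAGTCCA match begins 64 bases before the start in Cyp2c70, 77 in Cyp2c68, 125 in Cyp2c67 and 109 in Cyp3a11. AGGTCA was found in 7 of the 39 (17.9%, against 13.8% of all promoters), 6 of them lower with LRG1, beside 23 of all 39. GCGTG was found in 10 (25.6%, against 28.2%), CAGACA in 5 (12.8%, against 17.1%) and TTATGTAA in none (0.862% of all promoters). A match is a run of letters and not a measured site.

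Among Cyp2d genes the direction was mixed. Cyp2d9, a testosterone hydroxylase more abundant in males, had 49.8, 53.6 and 56.7 CPM with PBS and 34.8, 30.1 and 31.8 CPM with LRG1 (log2 fold change -0.73 with SE 0.064, adjusted p = 1.17e-09). Cyp2d10 went from 75.6 ± 6.48 to 50.4 ± 5.92 CPM (log2 fold change -0.58, adjusted p = 1.57e-07). Cyp2d26 was lower by a log2 fold change of -0.27 with overlapping groups. Cyp2d22, often taken as the mouse counterpart of human CYP2D6, was higher. It had 35.2, 38.5 and 41.8 CPM with PBS and 47.9, 46.2 and 45.04 CPM with LRG1, without overlap (log2 fold change 0.27 with SE 0.062, adjusted p = 0.000825). Windows near another P450 gene made up 9.28% of Cyp2d22, 38.4% of Cyp2d9 and 59.5% of Cyp2d10. Cyp2d13 (interval -1.08 to 0.047) and Cyp2d40 (-0.0019 to 0.79) did not pass. Cyp2d13 passed without LRG1 replicate 1 (-0.82, adjusted p = 0.0268). Cyp2d40 passed without PBS replicate 2 (0.59, adjusted p = 0.0213) and after removal of GC and length trends (0.48, adjusted p = 0.0373).

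Cyp2e1, the ethanol-induced enzyme of pericentral hepatocytes, had 145.3, 171 and 144.7 CPM in the PBS libraries and 143.2, 134 and 128 CPM in the LRG1 libraries. The groups did not overlap, by a narrow margin. The log2 fold change was -0.19 (SE 0.055, adjusted p = 0.00694). Without PBS replicate 2, which was the highest library, it was -0.10 and did not pass (adjusted p = 0.0904), nor did it without LRG1 replicate 3 (adjusted p = 0.0563) or after removal of GC and length trends (-0.11, adjusted p = 0.0779). Cyp2f2, a naphthalene-oxidising enzyme of periportal hepatocytes, had 34.1 ± 1.74 and 27.3 ± 2.24 CPM (log2 fold change -0.33 with SE 0.070, adjusted p = 0.000418).

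In the Cyp3a subfamily, the broad-range drug and steroid oxidases, 3 of 4 tested genes were lower (75%, against 25.8% of all tested genes). Cyp3a59 did not pass. Cyp3a13 had 147, 168 and 173 CPM in the PBS libraries and 52.8, 55.4 and 51.8 CPM in the LRG1 libraries. The LRG1 libraries were tightly grouped, far below every PBS library. The log2 fold change was -1.61 (SE 0.055, adjusted p = 3.07e-17).

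Cyp3a11, the main target of the receptor PXR in mouse liver, changed less. It had 155.3, 174.9 and 157 CPM with PBS and 126, 112.5 and 112.2 CPM with LRG1, again without overlap. The log2 fold change was -0.47 (SE 0.051, adjusted p = 3.39e-08). Both genes started from a like level, 163 ± 13.7 CPM for Cyp3a13 and 162 ± 10.96 CPM for Cyp3a11 with PBS. Cyp3a25 had a log2 fold change of -0.38 (adjusted p = 0.0322), which was lost under 7 of 17 alternatives, among them without PBS replicate 2 (-0.27, adjusted p = 0.177), LRG1 replicate 2 (adjusted p = 0.113) or LRG1 replicate 3 (adjusted p = 0.112). Windows near another P450 gene made up 80.2% of Cyp3a25 and 84.9% of Cyp3a59. Cyp3a59 passed without LRG1 replicate 1 (-0.87, adjusted p = 0.0383).

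**Figure D4:**
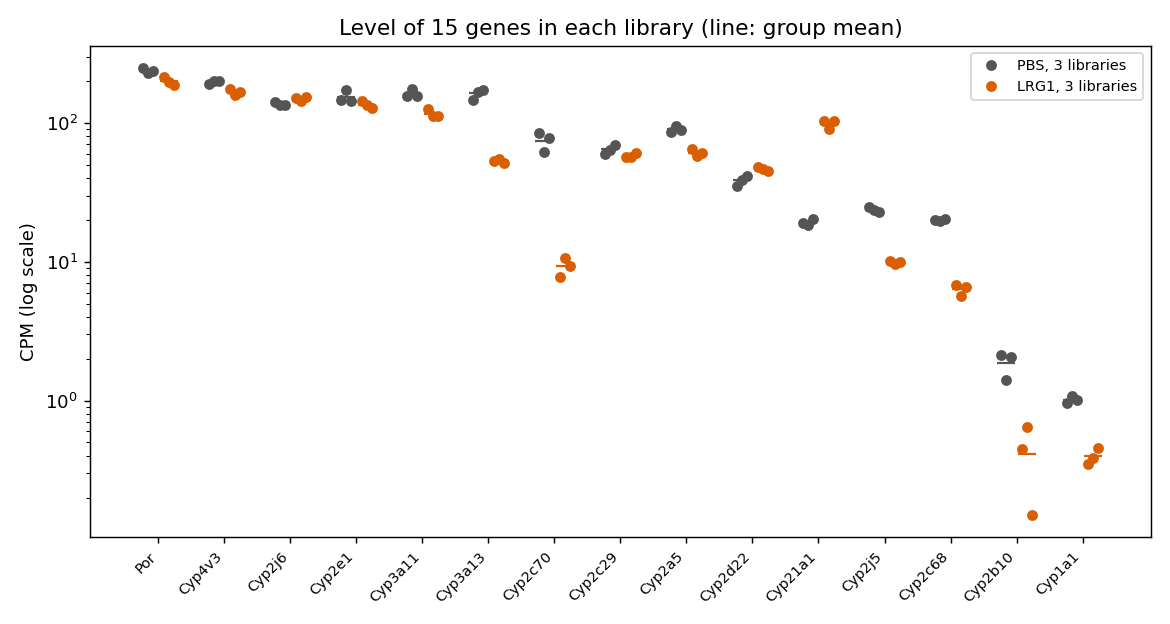
CPM on a log scale (y axis) of 15 genes (x axis) in each PBS library (grey) and LRG1 library (orange), with a line at the group mean. Cyp3a13, Cyp2c70, Cyp2j5, Cyp2c68 and Cyp2b10 sit lower and Cyp21a1 higher with LRG1, while Por, Cyp4v3, Cyp2j6 and Cyp2e1 are nearly level.

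The fatty acid and eicosanoid enzymes had no common direction. Of 16 tested, 5 were lower and 5 higher, 31.25% each, where 25.8% and 25.5% of all tested genes were. The other 6 did not pass the threshold, and the median log2 fold change was -0.083. In the Cyp2j subfamily, which makes epoxides of arachidonic acid, Cyp2j5 had 24.8, 23.7 and 22.7 CPM with PBS and 10.1, 9.67 and 9.93 CPM with LRG1. Both groups were tight and far apart (log2 fold change -1.26 with SE 0.082, adjusted p = 4.98e-12). Its neighbour Cyp2j6 was higher by a small amount, at 140.8, 135.5 and 134.9 CPM and then 150.7, 144 and 152.5 CPM (log2 fold change 0.12 with SE 0.041, adjusted p = 0.0163). The groups of Cyp2j6 did not overlap, but the call was lost without PBS replicate 3 (adjusted p = 0.0572), LRG1 replicate 1 (adjusted p = 0.0558) or LRG1 replicate 3 (adjusted p = 0.0713). Cyp2j9 and Cyp2u1 did not pass, with intervals of -0.78 to 0.42 and -0.36 to 0.22.

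Cyp4a enzymes hydroxylate the end of fatty acid chains, and Cyp4a10 and Cyp4a14 are known targets of the receptor PPARα. Cyp4a14 had 15.3, 16.1 and 16.98 CPM with PBS and 14.9, 15.8 and 14.5 CPM with LRG1, with overlapping groups and a 95% interval of -0.27 to 0.077 (adjusted p = 0.360). Cyp4a10 had an interval of -0.30 to 0.18. The male-enriched pair Cyp4a12a and Cyp4a12b had log2 fold changes of -0.40 (adjusted p = 0.00446) and -0.49 (adjusted p = 0.0367). Cyp4a12b lost its call under 9 of 17 alternatives, and with every single library but PBS replicate 1 left out (log2 fold changes of -0.51 to -0.39, the highest adjusted p 0.143, without PBS replicate 2). Cyp4a32 was higher, at 7, 16 and 34 counts with PBS and 50, 54 and 46 counts with LRG1, with a wide spread among the PBS libraries. Its log2 fold change was 1.247 (SE 0.31, adjusted p = 0.00174), and ranged from 0.83 without PBS replicate 1 to 1.97 without PBS replicate 3. The gene was tested only because of its LRG1 counts, so this difference is given as a description. Of Cyp4a32 windows 79.3% were near another P450 gene, and of the Cyp4a12 pair 87.9 and 88.9%.

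For Cyp4f, the subfamily that inactivates leukotrienes, 1 of 5 tested genes was lower (20%, against 25.8% of all tested genes). Another 2 were higher (40%, against 25.5%). Cyp4f14, a leukotriene B4 hydroxylase, had 11.5, 13.0 and 13.6 CPM with PBS and 8.66, 5.74 and 8.16 CPM with LRG1 (log2 fold change -0.77 with SE 0.13, adjusted p = 1.96e-05). Cyp4f17 had 11.4 ± 0.997 and 14.04 ± 0.482 CPM (log2 fold change 0.30 with SE 0.093, adjusted p = 0.00944) and did not pass without PBS replicate 2 (0.23, adjusted p = 0.0528). Cyp4f16 had 37.1 ± 1.74 and 40.8 ± 0.147 CPM (log2 fold change 0.14 with SE 0.057, adjusted p = 0.0470). That call ended under 10 of 17 alternatives, DESeq2 (adjusted p = 0.112) and every single library but PBS replicate 2 left out among them, the highest adjusted p being 0.189, without PBS replicate 1. Cyp4f13 was level at 58.2 ± 1.91 and 57.3 ± 2.04 CPM, with an interval of -0.13 to 0.084. Cyp4f15, at -0.45, did not pass and did so without PBS replicate 2 (-0.55, adjusted p = 0.0496).

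Cyp4v3, a fatty acid hydroxylase and counterpart of human CYP4V2, had the highest CPM of the P450 genes in both groups. It had 190.0, 202 and 202.1 CPM with PBS and 175.4, 159 and 167 CPM with LRG1. The groups were apart, with a log2 fold change of -0.25 (SE 0.043, adjusted p = 3.92e-05). Cyp4b1 had 1.57 ± 0.453 and 2.54 ± 0.264 CPM (log2 fold change 0.71 with SE 0.22, adjusted p = 0.0101), and did not pass without PBS replicate 1 (0.49, adjusted p = 0.0809).

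Among the enzymes of steroids, retinoids and vitamin D, Cyp21a1 stood alone in size. Cyp21a1 had 19.1, 18.3 and 20.3 CPM in the PBS libraries and 103, 90.6 and 102.7 CPM in the LRG1 libraries. The groups were far apart (log2 fold change 2.36 with SE 0.064, adjusted p = 4.99e-19). By annotation this gene, on chromosome 17, overlaps the pseudogene Tnxa on the opposite strand, and 50.1% of its windows lay near another P450 transcript, the pseudogene Cyp21a2-ps included. It follows C4a, a complement C4 gene, on the same strand. C4a itself had 8.66 ± 1.22 and 19.3 ± 3.28 CPM (log2 fold change 1.15 with SE 0.12, adjusted p = 2.24e-08), and its copy C4b 781 ± 28.7 and 1195 ± 51.3 CPM (log2 fold change 0.61 with SE 0.041, adjusted p = 7.23e-12). The part of these neighbours in the counts of Cyp21a1 was not tested. The other steroid-forming genes Cyp11a1, Cyp11b2 and Cyp19a1 had no count, and Cyp11b1 and Cyp17a1 had at most 6 in a library.

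Cyp26a1 and Cyp26b1, which break down retinoic acid, were both higher. Cyp26a1 had 21.9, 24.5 and 21.7 CPM with PBS and 28.9, 25.6 and 28.6 CPM with LRG1, without overlap (log2 fold change 0.29 with SE 0.074, adjusted p = 0.00238). Cyp26b1 had 21, 17 and 38 counts and then 44, 50 and 56 counts (log2 fold change 0.84 with SE 0.25, adjusted p = 0.00809). It missed the threshold when PBS replicate 2 (0.64, adjusted p = 0.0540) or LRG1 replicate 3 (0.71, adjusted p = 0.0520) was left out, and was 1.26 without PBS replicate 3. Cyp2r1, a vitamin D 25-hydroxylase, had 10.4, 9.81 and 11.4 CPM with PBS and 7.92, 9.41 and 9.02 CPM with LRG1 (log2 fold change -0.26 with SE 0.11, adjusted p = 0.0492). That call was at the threshold and was lost under 11 of 17 alternatives, without PBS replicate 3 (-0.20, adjusted p = 0.189) and LRG1 replicate 1 (-0.19, adjusted p = 0.175) among them. Without PBS replicate 1 (adjusted p = 0.0791) or LRG1 replicate 3 (adjusted p = 0.0748) it was lost as well. Cyp20a1, an orphan P450 with no settled substrate, had 33.1 ± 1.88 and 35.1 ± 2.21 CPM and an interval of -0.048 to 0.22.

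Por, the reductase that serves the microsomal P450 enzymes, had 247.6, 228 and 237 CPM in the PBS libraries and 215, 197 and 188 CPM in the LRG1 libraries. Every LRG1 library was below every PBS library, by a modest amount (log2 fold change -0.25 with SE 0.046, adjusted p = 7.36e-05). Of 7 tested redox partners and haem carriers, 4 were lower (57.1%, against 25.8% of all tested genes) and none higher (against 25.5%). Pgrmc1, a haem-binding membrane protein that associates with P450 enzymes, went from 1095 ± 14.8 to 607 ± 12.8 CPM (log2 fold change -0.85, adjusted p = 2.58e-15). Fdx1, the ferredoxin of mitochondrial P450 enzymes, had a log2 fold change of -0.53 (adjusted p = 2.28e-07) and the cytochrome b5 gene Cyb5b one of -0.25 (adjusted p = 5.21e-06).

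Haem synthesis and breakdown was tested with 12 genes, of which 6 were lower (50.0%, against 25.8% of all tested genes) and 2 higher (against 25.5%), and 4 did not pass. Alas1, the rate-limiting enzyme of liver haem synthesis, had 112 ± 5.34 and 99.1 ± 4.35 CPM (log2 fold change -0.17 with SE 0.047, adjusted p = 0.00325). Fech, which inserts the iron, and Alad, an early enzyme of the pathway, had log2 fold changes of -0.38 and -0.44. Uros and Hmox1 were higher, at 0.40 and 0.13. Only 1 of these 2 was called without PBS replicate 2 or without LRG1 replicate 2.

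Receptors and factors known to regulate P450 genes were lower for 19 of 21 tested (90.5%, against 25.8% of all tested genes), and none was higher. This list and those of partners, haem genes and oxygenases were chosen with earlier results of these data known. Their shares are therefore descriptions and not independent evidence. Nr1i2, which encodes PXR, went from 38.0 ± 2.79 to 14.2 ± 1.91 CPM (log2 fold change -1.42 with SE 0.085, adjusted p = 9.80e-13). Onecut1, which encodes HNF6, was 4.95-fold lower, and Cebpa went from 75.2 ± 5.02 to 42.3 ± 4.87 CPM (log2 fold change -0.83, adjusted p = 2.23e-10). Hnf4a had 360 ± 18.9 and 294 ± 11.5 CPM (log2 fold change -0.30, adjusted p = 3.22e-06). Ahr did not pass. In the list of epoxide hydrolases and other oxygenases all 9 tested genes were lower, again against 25.8% of all tested genes. The flavin monooxygenase Fmo5 went from 116 ± 5.99 to 28.8 ± 2.77 CPM, the aldehyde oxidase Aox3 from 41.5 ± 1.57 to 8.32 ± 1.21 CPM, and the microsomal epoxide hydrolase Ephx1 was 1.70-fold lower (adjusted p of 3.56e-18, 1.71e-16 and 4.39e-14). The median log2 fold change was -0.98 for these 9 genes, -0.41 for the regulators, -0.15 for haem metabolism and -0.30 for the partners.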

How the data were processed

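Each library came as a deposited table of raw counts by gene symbol. The submitters' processing notes name bcl2fastq, TopHat2, HTSeq and the mm9 build, with versions, annotation and strand setting not given in the sources used here. Per the labels' protocols about 500 ng of total RNA entered a poly(A)-selecting, strand-marking kit. HTSeq summary rows were left out. Non-unique alignments were 58.2 to 59.3% of all entries in the tables, so genes with close copies lost reads. Genes kept by filterByExpr (minimum count 10; 12301 genes) were tested with edgeR 4.0.16 in R 4.3.3, with TMM scaling, the quasi-likelihood test and Benjamini-Hochberg adjustment over all of them, tested on simulated data. SE came from the F statistic. DESeq2 1.42.0 and limma 3.58.1 were alternatives. GENCODE M21 (GRCm38) gave lengths, overlaps and windows, and no coordinates were joined to the counts. Per-library values were given for Por, the 8 members with the highest level, the 8 lowest and 6 highest fold changes past the threshold at log2 CPM of at least 1, known representatives, and members of 10 CPM or more that did not pass. Others were added after their values were seen. The members and lists were chosen with earlier results of these data known. Some genes of these lists are not reported by name here.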

Additional observations from a re-analysis of the deposited data

How the results depend on the processing

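Over the alternatives, from another scaling, filter or tool to leaving out each library, no called member changed direction. Leaving aside the 1.5-fold test and Cyp1a1, which a filter of 1 CPM in 3 libraries removed, 21 of 34 called members kept their call under all 17 refits, and 5 of the 14 members not called passed under at least 1. Members lower numbered 21 to 26 and members higher 6 to 8 when 1 library was left out. With DESeq2 they were 22 and 8. Tested against 1.5-fold, 7 were lower and 1 higher, as that test asks for a larger change. Leaving out the genes of subfamilies with at least 2 other members, 36 of the 50, left 7 lower and 4 higher, beside 26 and 9 in the main fit. Without those with 25% or more of windows near another P450 gene, an alternative chosen after seeing the data, 14 were lower and 6 higher. Both sets held fewer genes, and in both the lower members lost a larger part of their number than the higher ones. With GC and length trends removed, also chosen after seeing the data, 21 were lower and 10 higher. Without Por, the highest member, the summed level was 1782 CPM with PBS and 1456 CPM with LRG1. With the replicate block 23 were lower and 8 higher, and 1 gene of haem metabolism was higher in place of 2. The deviations of same-numbered libraries from their group means correlated at -0.123, -0.0142 and -0.119. With 3 libraries per group, these values cannot show whether the replicate numbers pair the samples. The count of higher haem genes was 1 to 2 when 1 library was left out. Depth limits the members at about 1 CPM or less, such as Cyp1a1, Cyp1b1 and Cyp2b10, whose SE exceeded 0.3 on the log2 scale.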
